A study of Mus musculus with 6 samples.

Results

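The genes described here are those that encode the proteins of the cytosolic ribosome, followed in the aorta of young and aged mice. They were picked by symbol alone, as every row of the count table that begins with Rpl or Rps followed by a number, or that reads Rplp0, Rplp1, Rplp2 or Rpsa, with the ribosomal S6 kinases left out. The rule found 92 of 55335 genes, and 88 of the 92 passed the filter on low counts. Of the 92, 77 are the canonical genes, 46 of the large and 31 of the small subunit, and 15 are others: 14 paralogs, retrogenes and processed copies, and Rps19bp1, which matches the rule by name only. The 4 genes that did not pass the filter were Rpl3l, Rpl10l, Rpl39l and Rps12l1.

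RNA was sequenced from whole aorta of wild-type C57BL/6 mice, 3 aged 6 weeks (young) and 3 aged 6 months (aged), with 1 library per mouse. The labels give no other genotype and no treatment, so the groups differ by age as labelled. According to the study's methods the animals were male, the fat around the vessel was removed and the tissue was frozen at once. No label ties the mice to a litter, a cage or a sequencing run.

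A ribosome consists of a small subunit, which reads the message, and a large subunit, which joins amino acids and lets the new chain leave through a tunnel. Each subunit is an RNA scaffold carrying many small, basic proteins, nearly all present as a single copy, and cells therefore tend to make these proteins in matched amounts. In mammals their messages begin with a tract of pyrimidines, the terminal oligopyrimidine or TOP motif, through which the kinase complex mTORC1 and the RNA-binding protein Larp1 govern their translation and their stability. Because the genes are read so strongly, mammalian genomes hold many intronless copies of them, and reads from a gene and from its copies are hard to separate.

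The libraries held 31049632 to 45832185 counts, and 16612 genes were tested. The labelled tissue carried its markers: the summed level of 9 smooth muscle markers lay between 29240 and 41990 CPM (counts divided by the library total, the latter corrected by the TMM method) over the 6 libraries. A pair of libraries stood apart. Young replicate 1 had 306 CPM of Xist, the RNA of the inactive X chromosome, against at most 0.636 in the other 5, and 1.09 CPM of the Y-linked Ddx3y against 44.8 to 65.6, which goes against the stated male sex. It also had a summed level of 12 striated muscle markers of 329 CPM, against 52.7 to 70.1 elsewhere. Aged replicate 2 had the highest summed level of 8 adipocyte markers, 4471 CPM against 982 to 2248. Counts on genes of the mitochondrial genome and their nuclear copies took 22.7% ± 4.23 of the young and 34.5% ± 4.45 of the aged libraries (SD, n = 3 each), without overlap between the groups (27.3%, 21.7% and 19.0% against 30.2%, 34.1% and 39.1%). The members' counts and medians are given with and without these libraries and genes.

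The start of these genes is shown first, because the pyrimidine tract there is a feature that the naming rule did not use. Among the 57 canonical genes with a RefSeq promoter window (GRCm38.p6), 13 (22.8%) had a start site at a C followed by at least 4 further C or T bases, against 3.01% of 27025 genes with a window. Counting such a tract anywhere within 10 bases of the start gave 59.6% against 34.4%. These shares describe annotated starts, which can lie some bases from the starts used in aorta. The following 30-base windows run 5′ to 3′ from 15 bases before the start, with the unbroken C and T run that covers the start in capitals.

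Rps6, chr4:86857353-86857382, minus strand: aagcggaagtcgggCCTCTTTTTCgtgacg
Rps27, chr3:90213634-90213663, minus strand: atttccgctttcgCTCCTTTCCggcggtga
Rplp2, chr7:141447636-141447665, plus strand: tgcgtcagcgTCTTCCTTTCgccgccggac
Rpl38, chr11:114668565-114668594, plus strand: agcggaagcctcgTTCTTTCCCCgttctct
Rpl28, chr7:4792950-4792979, plus strand: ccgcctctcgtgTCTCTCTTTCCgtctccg
Rps15a, chr7:118116133-118116162, minus strand: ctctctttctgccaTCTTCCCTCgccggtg

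These 6 belong to the 13, and in each the first base of the annotated message is a C inside the capitals. For comparison, the windows of Rpl39 and Rpl27, the canonical large subunit genes with the smallest p between the ages (given further on), are printed next.

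Rpl39, chrX:37085208-37085237, minus strand: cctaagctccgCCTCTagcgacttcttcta
Rpl27, chr11:101442230-101442259, plus strand: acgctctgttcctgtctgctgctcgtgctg

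Rpl39 has a shorter run that begins before the annotated start, and in Rpl27 no run of 5 or more covers it.

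The letters CCGGAAG, the core that ETS family factors such as Gabpa bind, occurred on either strand of the 300-base window, which lies mostly before the start but runs past it, in 24 of the 57 canonical genes (42.1%), against 9.93% of all genes with a window. The letters AAGATGG, the core of the motif of the factor YY1, occurred in 9 of the 57 (15.8%) against 7.28%. Both motifs were searched on both strands. Both subunits showed the ETS letters to a like degree, 41.2% of 34 large subunit and 43.5% of 23 small subunit genes. The 120 bases before the start are printed for 4 genes, with these letters in capitals.

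Rps6, chr4:86857368-86857487, minus strand: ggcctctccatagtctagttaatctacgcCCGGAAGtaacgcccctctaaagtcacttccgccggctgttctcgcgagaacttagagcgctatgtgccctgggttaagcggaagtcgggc
Rplp2, chr7:141447531-141447650, plus strand: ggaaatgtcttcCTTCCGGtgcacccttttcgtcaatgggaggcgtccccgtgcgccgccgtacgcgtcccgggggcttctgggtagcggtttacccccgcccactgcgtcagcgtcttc
Rpl38, chr11:114668460-114668579, plus strand: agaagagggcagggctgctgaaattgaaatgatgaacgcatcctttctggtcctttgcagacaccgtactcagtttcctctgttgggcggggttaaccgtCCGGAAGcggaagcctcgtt
Rps27, chr3:90213649-90213768, minus strand: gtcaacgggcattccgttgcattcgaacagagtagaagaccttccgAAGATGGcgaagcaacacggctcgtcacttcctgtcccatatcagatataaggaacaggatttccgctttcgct

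Rps6 and Rpl38 carry CCGGAAG on the strand of the gene, Rplp2 carries its reverse complement CTTCCGG, and Rps27 carries AAGATGG. Whether these factors act at these sites in aorta was not measured. The coding sequences of the canonical genes ran from 78 bases (Rpl41) to 1260 (Rpl4), with a median of 459. The whole coding sequence of Rpl41, on chromosome 10 (GENCODE M21, GRCm38), with its run of lysine and arginine codons, is the following.

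Rpl41: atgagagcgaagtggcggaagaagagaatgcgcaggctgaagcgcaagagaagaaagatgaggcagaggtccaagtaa

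The level of a gene per unit length was first read from the deposited FPKM (counts divided by gene length and by library total), and genes are compared with each other only per length. The canonical genes had a median of 136 FPKM (mean of 6 libraries per gene), and 47 of the 77 lay within 2-fold of it. The highest large subunit genes were Rplp1, which with Rplp0 and Rplp2 forms the stalk that recruits translation factors (587 FPKM), Rpl4, which lines the exit tunnel (458), and Rpl23a, which sits at the tunnel's mouth (428). In the small subunit they were Rps3a1 (722), Rps15 (666) and Rps4x (427), the X-linked gene of protein S4. The lowest were Rpl22 (34.0) in the large and Rps28 (25.4) in the small subunit.

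Across libraries, Rps3a1 had 872, 644 and 629 FPKM in young and 911, 582 and 696 in aged aorta, and Rps15 had 693, 702 and 610 against 837, 521 and 635. Rplp1 had 568, 535 and 461 FPKM in young and 881, 482 and 599 in aged aorta. Rps3a1 and Rps15 thus differed by less than the spread between libraries, while both stood above Rps4x (483, 395 and 339 in young, 609, 321 and 416 in aged) in all 6. For Rpl4 the values were 516, 439 and 419 against 546, 389 and 437, and for Rpl23a 482, 386 and 354 against 539, 432 and 376, so that these neighbours changed places in 1 library. The order of the 77 genes was nearly the same in every library, with Spearman's rho between 0.963 and 0.988 over the 15 pairs of libraries, across genes that share the same gene lengths and are not independent replicates.

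The order of levels depends on the gene length used. The length implied by each gene's count, FPKM and library total was 1.10 times the summed length of all its annotated exons at the median of 90 genes with counts (range 1.09 to 1.25), so the deposited values are divided by every annotated exon, retained introns and rare isoforms included. For the canonical genes that length was 2.11 times the principal transcript at the median, and 9.80 times for Rps15a. When CPM were divided by the length of the principal transcript instead, a choice made after seeing the data, 67 of the 77 genes lay within 2-fold of their median, and the SD over genes was 0.72 in place of 1.07 on the log2 scale. Spearman's rho between both measures was 0.732 over the 77 genes. On this scale Rps15 (928 CPM per kilobase), Rps3a1 (800) and Rps4x (793) still led the small subunit, and Rpl26 (804), Rpl23a (716), Rpl4 (660.1) and Rplp1 (655) the large one. Rps15a, among the lowest by FPKM (31.8), was the median gene at 347 CPM per kilobase, Rps28 stood at 124, and Rps20, whose principal transcript is annotated as 3706 bases long, was lowest at 47.0.

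**Figure D1:**
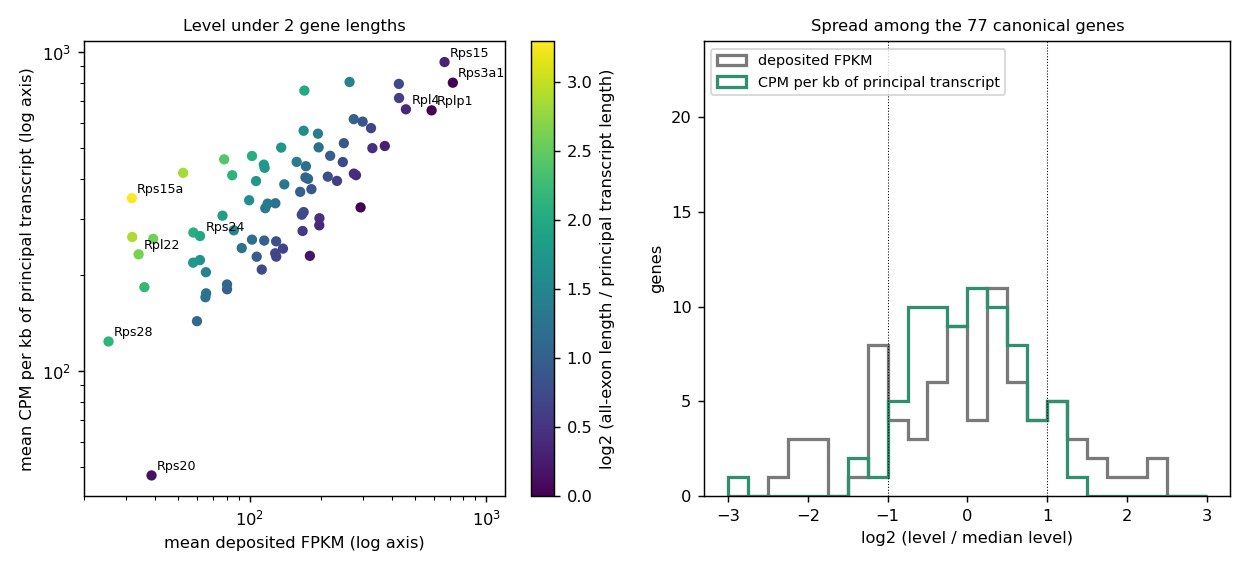
Left, each of the 77 canonical genes by its mean deposited FPKM (x, log axis) and its mean CPM per kilobase of principal transcript (y, log axis), coloured by the log2 ratio of the length of all annotated exons to that of the principal transcript. Right, the number of genes by log2 distance from the median level on each scale, with dotted lines at 2-fold: 47 genes lie between them by FPKM and 67 by principal transcript, and Rps15a, with the largest length ratio, lies far above the diagonal trend on the left.

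Together the 92 genes took 2.72%, 2.43% and 2.17% of all counts in the young libraries and 3.23%, 2.10% and 2.41% in the aged ones, or 2.44% ± 0.274 against 2.58% ± 0.584 (SD, n = 3 each). The aged values span the young ones, so no difference larger than the spread between libraries was seen. With mitochondrial genes and their copies left out of the total, the share was 3.74%, 3.10% and 2.68% in young against 4.63%, 3.19% and 3.96% in aged libraries (3.17% ± 0.533 against 3.92% ± 0.721), and the groups still overlapped. Large subunit genes took 1.42 to 1.52 times the counts of small subunit genes in every library. In whole tissue, a lower share of a cell type and less RNA of a gene per cell cannot be told apart.

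**Figure D2:**
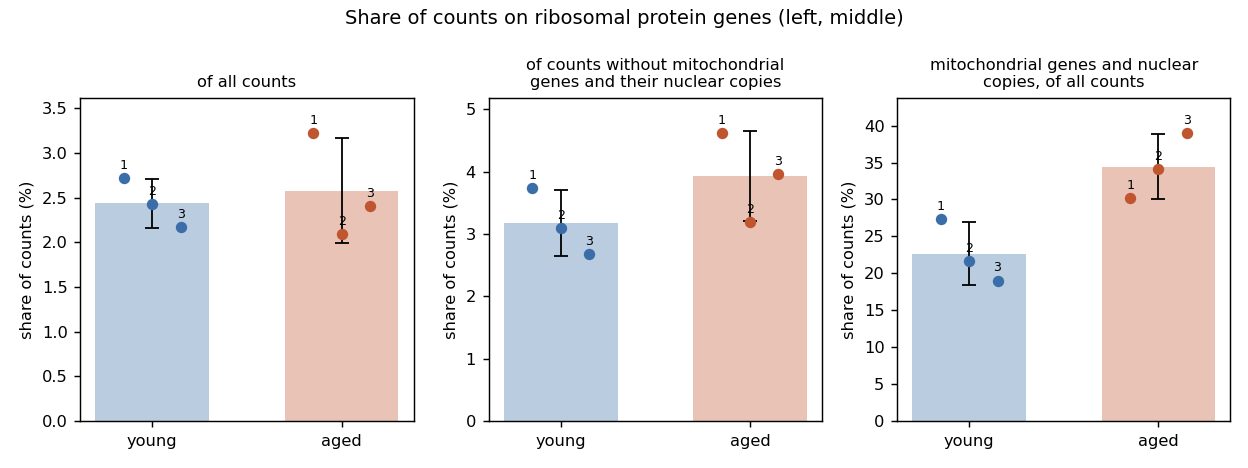
Share of counts (%) on the 92 ribosomal protein genes in the 3 young and 3 aged libraries, of all counts (left) and without mitochondrial genes and their nuclear copies (middle), and the share of the latter genes (right). Bars are means, whiskers SD, and numbered points are libraries by replicate: aged 1 is highest in the left and middle panels, aged 2 lies within or below the young range in the left one, and only in the right panel are the groups apart.

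The comparison of aged with young aorta asks whether these genes change together or singly with age. After TMM scaling, 86 of the 88 tested genes had a fitted log2 fold change above 0, against 52.1% of all genes tested, with a median of 0.33 (quartiles 0.24 and 0.38) against 0.02 over all genes. The median was 0.30 for the large and 0.36 for the small subunit canonical genes. No member passed an adjusted p of 0.05 (lowest 0.400), and neither did any other gene, 0% of 16612, by edgeR's quasi-likelihood test, while 1723 genes had an unadjusted p under 0.05. DESeq2 called 338 genes, 221 of them higher in aged aorta, and limma on log2 FPKM called 0, and neither tool called a member.

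At an unadjusted p under 0.05, 5 of the 88 genes were higher in aged aorta (5.68%), next to a background of 5.56% of all genes, and 0 were lower, next to 4.82%. The members' share in the higher direction is thus at the background. All 3 aged libraries lay above all 3 young ones for 12 of the 88 genes (13.6%, background 7.74%) and below them for 0 (background 8.78%). Among the 12 were Rpl22l1, Rpl24, Rpl27, Rpl31, Rpl37a, Rpl39, Rps10, Rps19bp1, Rps27, Rps27l and Rps4l. The genes are not independent of each other, and the members shift together from library to library.

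Taken per library against the mean of the young ones, the median canonical gene stood at 0.20, -0.017 and -0.19 on the log2 scale in young replicates 1, 2 and 3, and at 0.63, 0.046 and 0.29 in aged replicates 1, 2 and 3. Aged replicate 1 held the highest value for 72 of the 77 genes and young replicate 3 the lowest for 63. Aged replicate 2 lay below young replicate 1, so the groups overlapped at the median. Without aged replicate 1 the subunit medians were 0.14 (large) and 0.15 (small), and 1 member, Rps10, had a p under 0.05, next to 4.26% of all genes. Without aged replicate 2 they were 0.44 and 0.48, and 34 members had a p under 0.05 next to 8.19% of all genes, with 110 genes called, none of them a member. Without young replicate 1 the medians were 0.42 and 0.47 and the count 15, next to 5.90%. Leaving out young replicate 1 and aged replicate 2 together gave medians of 0.55 and 0.60 and 64 of 88, next to 9.41%, and 0 called genes (lowest adjusted p 0.0542). With mitochondrial genes and their copies removed before scaling, the medians were 0.30 and 0.35 and the count 5, next to 5.35%.

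Several single values also depended on aged replicate 1. Without it the fitted log2 fold changes were lower in Rps6 (0.22 against 0.36), Rps27a (0.21 against 0.38), Rpl22l1 (0.35 against 0.53), Rpl5 (0.027 against 0.24), Rpl23 (0.16 against 0.34) and Rpl36al (0.098 against 0.32). Among the copies they were lower in Rps27rt (0.019 against 0.18), Rpl37rt (0.038 against 0.21) and Rps3a2 (0.040 against 0.18).

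**Figure D3:**
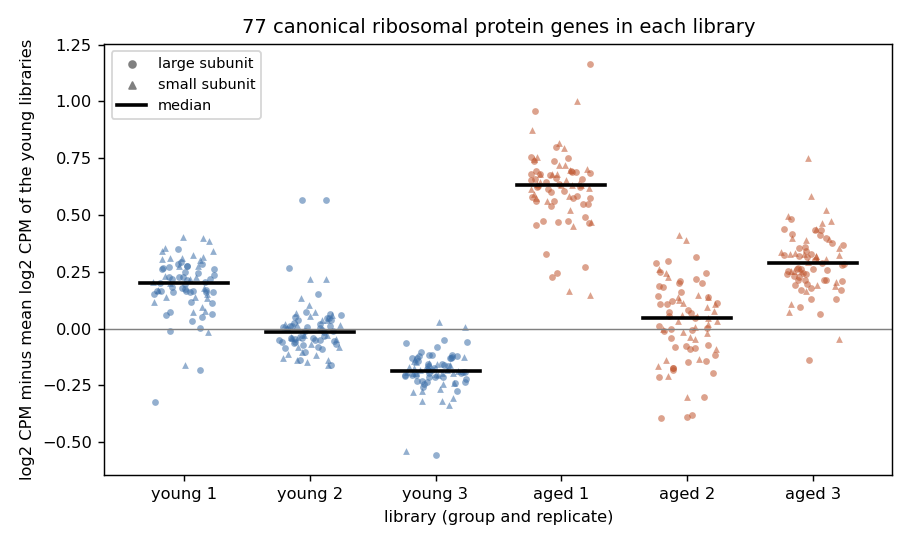
Log2 CPM of each canonical gene in each library, minus its mean over the young libraries (y), for 46 large subunit (circles) and 31 small subunit genes (triangles), with the median as a bar. The points of a library sit together: the medians are 0.20, -0.017 and -0.19 in the young libraries and 0.63, 0.046 and 0.29 in the aged ones.

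The size of the shift depends on the scaling. TMM factors were 1.06 to 1.11 in the young and 0.886 to 0.943 in the aged libraries. With library totals alone, the median of all genes moved from 0.02 to -0.22, the members' medians to 0.072 (large) and 0.13 (small), and 70 of 88 were above 0. Relative to the median of all genes the members stood at 0.29 and 0.34 under library totals, next to 0.28 and 0.34 under TMM. That gap was 0.19 and 0.24 by limma on log2(FPKM + 1), and 0.13 and 0.15 without aged replicate 1.

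**Figure D4:**
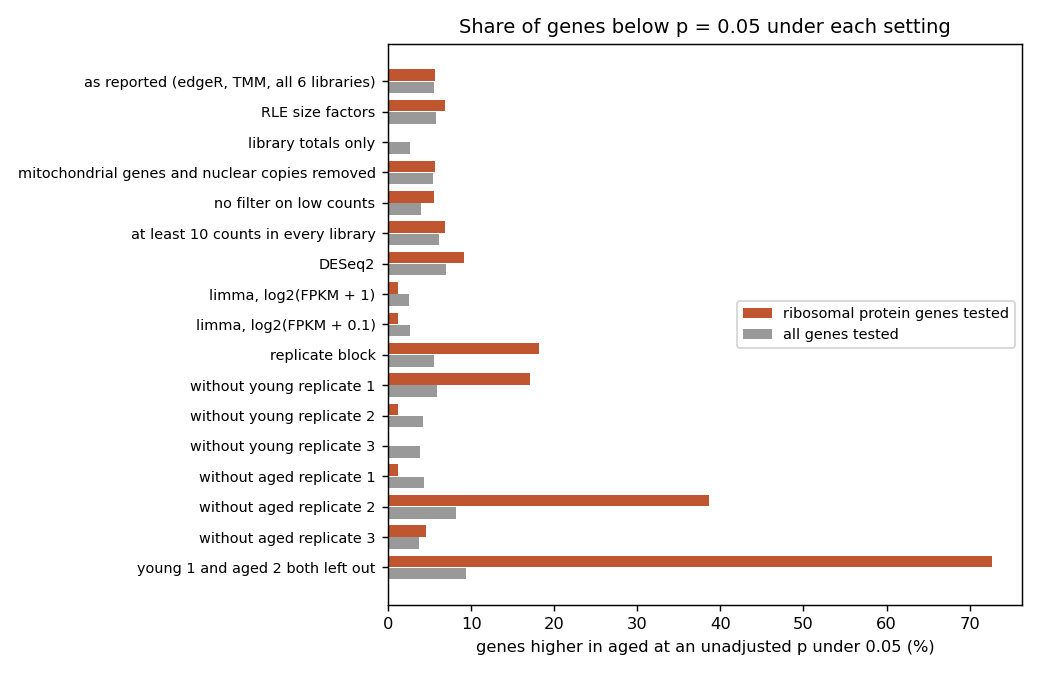
Percent of the tested ribosomal protein genes (upper bar of each pair) and of all tested genes (lower bar) that were higher in aged aorta at an unadjusted p under 0.05, under each setting. The pairs differ little in the fit as reported (5.68% and 5.56%) and most when aged replicate 2 is left out, alone or with young replicate 1.

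Genes with the smallest p are described with their values in every library, in CPM. Rpl39, on chromosome X (37082520 to 37085402), encodes a very short protein of the exit tunnel. It had 93.2, 86.5 and 79.1 CPM in young and 144, 106 and 117 in aged aorta, with every aged library above every young one. The log2 fold change was 0.50 ± 0.17 (SE; adjusted p = 0.415 by edgeR), and 0.57 without young replicate 1.

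Rpl27, on chromosome 11 (101442298 to 101445529), encodes a large subunit protein that is mutated in some patients with Diamond-Blackfan anaemia, an inherited failure of red cell formation. Its young libraries had 175, 167 and 162 CPM and its aged ones 271, 209 and 209, again without overlap. The log2 fold change was 0.45 ± 0.16 (SE; adjusted p = 0.432 by edgeR).

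Rps27, a zinc finger protein of the small subunit, followed with 177, 180 and 148 CPM in young and 257, 197 and 211 in aged aorta, also without overlap (log2 fold change 0.40 ± 0.17, SE; adjusted p = 0.485 by edgeR). The 2 non-canonical genes among the 5, Rps4l and Rpl22l1, are described with the copies. Only Rpl29 and Rps3a3 had a fitted log2 fold change below 0. For Rpl29, a large subunit protein with a basic tail, the values were 164, 245 and 112 CPM in young and 196, 126 and 186 in aged aorta, so that the young libraries alone differed more than 2-fold, and its fold change of -0.039 ± 0.31 (SE; adjusted p = 0.974 by edgeR) turned positive when young replicate 2 was left out (0.30). Rps3a3, a processed copy of Rps3a1, had 4.85, 4.60 and 3.76 CPM against 5.63, 3.55 and 3.57.

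**Figure D5:**
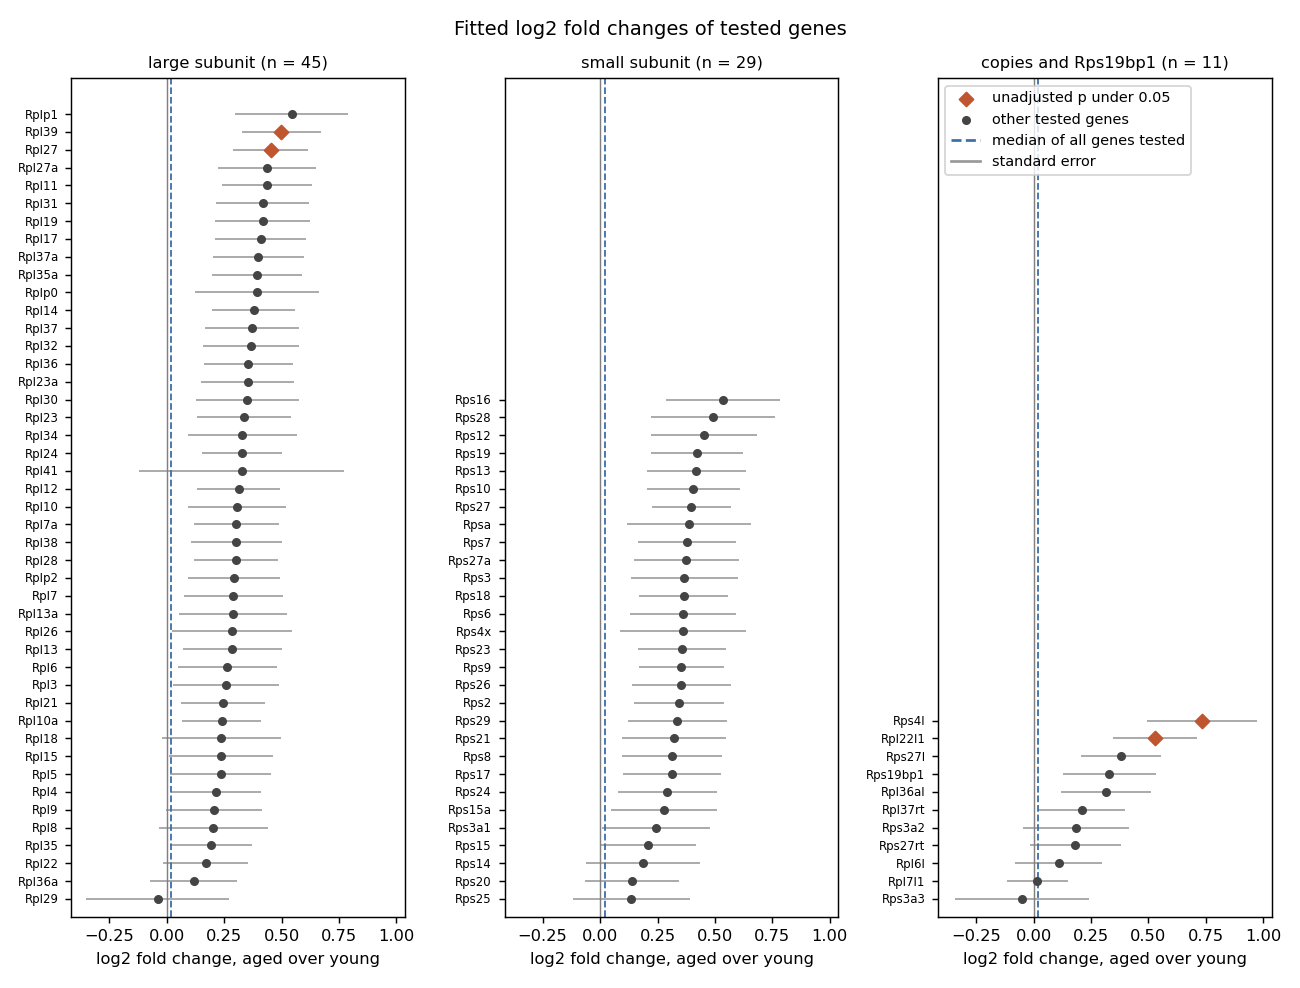
Fitted log2 fold change (aged over young, x) with its standard error for 45 large subunit, 29 small subunit and 11 other tested genes. Diamonds mark genes with an unadjusted p under 0.05, and the dashed line the median of all genes tested (0.02). All points but those of Rpl29 and Rps3a3 lie above 0, from 0.016 (Rpl7l1) to 0.73 (Rps4l).

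In the stalk, Rplp1 had one of the highest fitted values, 0.54 ± 0.25 (SE; adjusted p = 0.502 by edgeR), from 297, 272 and 229 CPM in young and 514, 280.0 and 370 in aged aorta. Rplp0, which anchors the stalk, had 692, 570 and 523 against 1029, 516 and 797, and its partner Rplp2 had 139, 121 and 112 against 181, 117 and 158. In all 3 genes aged replicate 1 was highest and aged replicate 2 lay within the young range or below it. None of the 3 stalk genes had a p under 0.05, and their median log2 fold change was 0.39. Without aged replicate 1 the fitted values were 0.29 (Rplp1), 0.14 (Rplp0) and 0.15 (Rplp2).

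Rpl5, Rpl11 and Rpl23 bind Mdm2, the ubiquitin ligase of p53, when ribosome assembly fails, the first 2 together with 5S RNA. Rpl11 had 187, 150.3 and 135 CPM in young and 251, 180.4 and 208 in aged aorta (log2 fold change 0.44 ± 0.20, SE; adjusted p = 0.501 by edgeR). Rpl5 had 478, 425 and 382 against 639, 384 and 488, and Rpl23 had 333, 289 and 244 against 448, 310 and 336. Each of them overlapped between the ages, and none had a p under 0.05.

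Of the 9 genes whose products line or surround the exit tunnel, all had a fitted value above 0 (median 0.35). Among them 1 (11.1%), Rpl39, had a p under 0.05 in the higher direction, next to 5.56% of all genes. Next came Rpl17, with 324, 257 and 231 CPM in young and 421, 311 and 345 in aged aorta, where the lowest aged library lay below the highest young one. Rpl22, in the same list, had 125, 96.0 and 89.5 against 129, 102 and 119.

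Of the genes whose proteins join the large subunit late, 3 of 4 were above 0 (Rpl10, Rpl24 and Rplp0, not Rpl29). Rpl24, which reaches toward the small subunit, had 264, 228 and 218 CPM in young and 348, 270.4 and 272 in aged aorta without overlap (0.33 ± 0.17, SE; adjusted p = 0.549 by edgeR). The late proteins of the small subunit, Rps10 and Rps26, stood at 0.41 and 0.35. Rps26 had 185, 140 and 138 CPM against 248, 169 and 174, and Rps10 is described with the genes that depart from the rest.

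Rps6, the substrate of the S6 kinases and a common readout of mTORC1, had 595, 422 and 376 CPM in young and 705, 502 and 582 in aged aorta (0.36 ± 0.23, SE; adjusted p = 0.609 by edgeR). Young replicate 1 lay above aged replicates 2 and 3. Rps27a, which is made as a fusion with ubiquitin, had 232, 182 and 156 against 300, 192 and 247 (0.38 ± 0.23). Among 18 genes mutated in Diamond-Blackfan anaemia, 18 were above 0 (median 0.37). In the higher direction 1 (5.56%), Rpl27, had a p under 0.05, the same share as over all genes (5.56%). In 4 of them (22.2%, background 7.74%) all aged libraries lay above all young ones: Rpl27, Rpl31, Rps10 and Rps27. With library totals only, each of these 4 overlapped between the ages.

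The 4 canonical genes on chromosome X are given apart because young replicate 1 differed in sex-linked genes. Beside Rpl39, these are Rps4x, with 825, 656 and 551 CPM in young and 1160, 609 and 838 in aged aorta, Rpl10, which completes the large subunit, with 451, 375 and 360.3 against 598, 374 and 495, and Rpl36a, with 119, 97.3 and 87.0 against 121, 90.7 and 118. Young replicate 1 was the highest young library for all 4, as it was at the median of the canonical genes. Without it the log2 fold changes were 0.57 (Rpl39), 0.53 (Rps4x), 0.42 (Rpl10) and 0.26 (Rpl36a), against 0.50, 0.36, 0.31 and 0.12 with it. Without aged replicate 1 they were 0.37 (Rpl39), 0.094 (Rps4x), 0.14 (Rpl10) and 0.043 (Rpl36a).

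The copies ranged from near-silent genes to ones that rival their parents by deposited FPKM. Rpl10l, an intronless copy of Rpl10 known from testis, and Rps12l1, whose transcript holds the whole coding sequence of Rps12, had 0 counts in all 6 libraries. A count of 0 does not exclude a low level, since by counting error alone an expected count of about 3 can still give 0 at times. For Rps12l1 reads could not be told apart from those of Rps12. Rpl3l, the striated muscle form of Rpl3, had 72 counts in young replicate 1, 3 in aged replicate 2 and 0 in the other 4 libraries, while Rpl3 had 354 to 611 CPM. Young replicate 1 is also the library with the highest striated muscle markers (329 CPM), and the part these play in Rpl3l was not tested. Rpl39l, known from male germ cells, had 4, 6 and 0 counts in young and 7, 32 and 5 in aged libraries.

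Rpl39l and its parent Rpl39 differ at 23 of 156 coding bases (85.3% identity) and share no run of 50 bases, so these few counts can be separated from those of the parent. Their coding sequences are printed with the bases of Rpl39l that differ in capitals.

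Rpl39: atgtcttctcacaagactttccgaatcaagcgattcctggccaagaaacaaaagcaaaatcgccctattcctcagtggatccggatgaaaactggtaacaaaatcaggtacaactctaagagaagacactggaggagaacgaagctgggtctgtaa
Rpl39l: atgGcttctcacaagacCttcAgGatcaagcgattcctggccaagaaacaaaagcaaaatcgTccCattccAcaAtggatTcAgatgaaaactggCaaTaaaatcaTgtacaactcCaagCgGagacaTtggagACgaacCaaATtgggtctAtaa

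The differences are spread over the whole length of Rpl39l, on chromosome 16. The reverse holds for Rps27rt, an intronless copy of Rps27 on chromosome 9 (114982366 to 114982739), whose 255 coding bases are identical to those of Rps27. Of the 50-base words of Rps27rt, 91.1% occur in Rps27 as well. The sequence of Rps27, which is also that of Rps27rt, is printed beside Rps27l, a paralog with introns of its own on the same chromosome 9, with the 61 bases of Rps27l that differ from Rps27 in capitals.

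Rps27: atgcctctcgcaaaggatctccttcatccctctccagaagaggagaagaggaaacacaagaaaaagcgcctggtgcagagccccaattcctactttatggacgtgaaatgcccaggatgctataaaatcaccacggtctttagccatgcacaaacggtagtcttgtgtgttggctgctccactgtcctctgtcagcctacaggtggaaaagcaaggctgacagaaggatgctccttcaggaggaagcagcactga
Rps27l: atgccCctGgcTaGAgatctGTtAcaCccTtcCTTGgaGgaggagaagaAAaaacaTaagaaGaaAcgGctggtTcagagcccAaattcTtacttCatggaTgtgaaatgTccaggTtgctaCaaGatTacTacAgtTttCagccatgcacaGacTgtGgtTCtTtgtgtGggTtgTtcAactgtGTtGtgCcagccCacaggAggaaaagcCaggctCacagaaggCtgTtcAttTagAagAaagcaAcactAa

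Rps27l, a target of p53, had 46.6, 46.8 and 36.6 CPM in young and 64.3, 49.4 and 55.6 in aged aorta without overlap (0.38 ± 0.17, SE; adjusted p = 0.507 by edgeR). Rps27rt had 23.3, 31.9 and 25.8 against 37.2, 26.0 and 28.7, values that the shared sequence makes uncertain. In FPKM, Rps27l had a mean of 55.1, Rps27rt 69.5 and Rps27 169.

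Rps4l, a copy of Rps4x on chromosome 6 (148354656 to 148355598) that GENCODE types as a transcribed processed pseudogene, had the highest fold change and the smallest p of all 88 genes. Its values were 5.97, 8.48 and 6.03 CPM in young and 12.9, 9.54 and 11.6 in aged aorta, with no overlap. The log2 fold change was 0.73 ± 0.24 (SE; adjusted p = 0.400 by edgeR), and it lay between 0.46 and 0.93 under all alternatives. Rps4l is 81.4% identical to the coding sequence of Rps4x and shares no 50-base word with it, and its mean FPKM was 8.53 next to 427 for Rps4x. It alone among the members had a p under 0.05 by limma on FPKM.

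Rpl22l1, on chromosome 3 (28805436 to 28807424), is a paralog of Rpl22 that can take its place in the ribosome. It had 22.9, 21.3 and 20.9 CPM in young and 38.6, 26.2 and 29.1 in aged aorta, again with no overlap (0.53 ± 0.18, SE; adjusted p = 0.419 by edgeR). Its parent Rpl22 stood at 0.17 ± 0.18 with overlapping groups, and the difference between both was not tested. Per length, Rpl22l1 had a mean of 11.9 FPKM and Rpl22 34.0. Of the words of Rpl22l1, 50.7% also occur in the gene Gm15421.

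Rpl36al, a paralog of Rpl36a that is widely expressed, reached 55.6 FPKM next to 57.8 for Rpl36a, the closest match of a copy to its parent by FPKM. Per kilobase of principal transcript it had 159 CPM next to 218 for Rpl36a. In CPM it had 79.8, 72.2 and 71.1 in young and 118, 79.9 and 79.3 in aged aorta. Rpl7l1, a relative of Rpl7 that acts in ribosome assembly, differed little between libraries, with 58.3, 55.8 and 55.7 against 59.9, 54.4 and 57.3 CPM (log2 fold change 0.016 ± 0.13, SE). Under library totals alone its fold change was -0.22, and there it was the 1 member whose aged libraries all lay below the young ones. Rps19bp1, which binds Rps19 and is a regulator of the deacetylase Sirt1 and not a ribosomal protein, had 7.14, 8.39 and 7.78 CPM against 9.27, 8.91 and 11.2 without overlap (0.33 ± 0.20, SE; adjusted p = 0.593 by edgeR).

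The other copies were named after their values were seen. Rpl6l had 23.7, 25.5 and 25.4 CPM in young and 33.6, 22.4 and 24.4 in aged aorta, Rpl37rt 63.8, 61.4 and 50.5 against 82.9, 58.6 and 61.8, and Rps3a2 86.8, 61.6 and 62.0 against 94.9, 59.2 and 85.1. All 3 are at least 98.7% identical to the coding sequence of their parents, so their counts cannot be kept apart from Rpl6, Rpl37 and Rps3a1 with certainty. Beyond the 92, 275 rows are named as pseudogenes of these genes, and 174 of them had counts. They summed to 6.55% to 6.78% of the members' counts in every library. The largest, Rps6-ps4, held 27.4% to 33.3% as many counts as Rps6.

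Over all canonical genes, 61.5% of the 50-base words of a gene (the read length) occurred in no other annotated gene at the median, from 4.90% for Rpl35 to 100% at the highest, and 27 of the 77 had under 50%. In addition 30 of the 77 hold 58 genes of small nucleolar RNAs between their start and end, on the same strand. Whether each lies in an intron was not checked.

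The canonical genes moved together between libraries more than they moved apart. The SD of log2 CPM over the 6 libraries was 0.30 for the median gene. It was 0.38 over all genes tested and 0.26 over the 2947 with a mean of at least 50 CPM. Once the median of the members in each library was taken away, the members' SD was 0.10, with 65 of 77 genes under 0.15. That median came from the same genes, and no other set was treated in this way. Among the genes with the largest remainder, picked by these values, were Rpl41, Rpl29, Rps10 and Rps25.

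Rpl41, the shortest of all, had 102, 188 and 108 CPM in young and 285, 97.0 and 115 in aged aorta, with an SD of 0.50 after the removal. Young replicate 2 and aged replicate 1 stood far above the other 4 libraries. For Rpl29 the remainder was 0.38, through the high value of young replicate 2. Rps10 had 151, 186 and 172 against 189, 200.1 and 285, and Rps25 had 275, 256 and 151 against 244, 293 and 213.

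In Rps10 and Rps25 the departure from the library median in aged replicate 1, the library with the highest member levels, was low. It lay 0.50 and 0.41 below the gene's own mean departure over the 6 libraries. In young replicate 1 the departure of Rps10 was low too (-0.39), while that of Rps25 was 0.20. The pseudogene row Rps10-ps2 held 30.2% as many counts as Rps10 in young replicate 1 and 32.3% in aged replicate 1. Elsewhere it held 17.6% to 19.5%. By annotation, Rps10 shares exons with the readthrough gene RPS10-NUDT3 on its own strand, and Rps25 overlaps Trappc4 and Ccdc84 on the other strand. The part that these overlaps and Rps10-ps2 play in the counts was not tested.

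The naming rule misses some ribosomal proteins. Of these, Fau, which carries S30, had 160.0, 131 and 118 against 224, 154 and 177 (0.44), and Rack1, a propeller protein at the head of the small subunit, stood at 0.27.

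Translation factors and other genes with TOP motifs had 16 of 16 fitted values above 0, a median of 0.18 and 0 genes with a p under 0.05. Tpt1, one of the best known TOP messages, had 932, 790.4 and 707 CPM in young and 1264, 888 and 1065 in aged aorta (0.41 ± 0.20, SE; adjusted p = 0.529 by edgeR). Npm1, the nucleolar chaperone nucleophosmin, had 236, 166 and 169 against 264, 233 and 226. Among 78 proteins of the mitochondrial ribosome, which is built separately, 64 were above 0 and the median was 0.17. Next to a background of 5.56% of all genes in the higher direction, 1 of the 78 (1.28%) had a p under 0.05. That was Mrps33, with 10.2, 8.10 and 7.28 CPM against 12.3, 14.2 and 10.7, and Mrps16 came next.

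The machinery that makes ribosomal RNA gave other values. Of 14 genes of RNA polymerase I and its factors 5 were above 0, with a median of -0.063. In the lower direction, next to a background of 4.82% of all genes, 1 had a p under 0.05. This was Polr1b, the second largest subunit of the polymerase, with 14.4, 17.4 and 17.6 CPM in young and 10.8, 10.4 and 12.4 in aged aorta without overlap (-0.55 ± 0.18, SE; adjusted p = 0.403 by edgeR). Taf1a, of the factor that brings the polymerase to ribosomal DNA, had 32.4, 27.9 and 32.7 against 27.1, 23.0 and 22.8.

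Among 55 nucleolar assembly factors 36 were above 0 (median 0.057). In the higher direction 3 (5.45%) had a p under 0.05, Nhp2, Sbds and Tsr2, next to 5.56% of all genes. This share is at the background, and 0 were lower, next to 4.82%. Nhp2, a protein of the particles that modify ribosomal RNA, had 16.5, 14.6 and 17.2 CPM in young and 29.1, 19.1 and 27.2 in aged aorta (0.64 ± 0.20, SE; adjusted p = 0.390 by edgeR). Sbds, which frees the large subunit for use, had 71.4, 66.6 and 69.3 against 84.1, 116 and 83.5.

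Of 18 genes of mTORC1 and of TOP control 7 were above 0, with a median of -0.093. Tsc1, a brake on mTORC1, had 23.3, 35.3 and 30.5 CPM in young and 20.3, 19.5 and 19.2 in aged aorta (-0.59 ± 0.19, SE; adjusted p = 0.390 by edgeR). Deptor, an inhibitor bound to the complex, had 17.9, 15.8 and 11.5 against 21.3, 81.1 and 27.4, with aged replicate 2 far above the other aged libraries. None of these lists held a gene with an adjusted p under 0.05.

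Marker levels of the cell types in the vessel differed between the same libraries. The summed level of 9 macrophage markers was 108 to 147 CPM in young libraries and 489, 147 and 320.0 in aged replicates 1, 2 and 3. All 9 genes had a p under 0.05, higher in aged aorta, next to 5.56% of all genes. Aged replicate 1, highest for 72 canonical genes, was highest for macrophage and for 8 fibroblast markers (12640 CPM against 4613 to 8770). Of the 8 fibroblast markers, 6 had a fitted log2 fold change above 0 (median 1.32, lowest -0.28). A p under 0.05 in the higher direction was seen for 4 of them (50%), next to 5.56% of all genes. Aged replicate 3 was highest for 8 endothelial markers (1771 CPM against 372 to 540), and aged replicate 2, with the lowest member levels of the aged group, had the lowest fibroblast and the highest adipocyte sums. Smooth muscle markers were below 0 in 9 of 9 genes. Of these, 3 had a p under 0.05, next to 4.82% of all genes in the lower direction. The sum of 7 T and B cell markers, 5 of which had counts in every library, was 7.59 CPM at most. Within the young group the fibroblast sums ran the other way. Young replicate 3, lowest for 63 canonical genes, had the highest young sum (8400 CPM), and young replicate 1 the lowest (6177). Young replicate 1 had the highest young macrophage sum (147 CPM). The part of these cell types in the members' levels was not tested.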

How the data were processed

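RNA from whole aorta of 3 young and 3 aged mice was sequenced single-ended. Both tables were used: the authors deposited raw counts of reads per gene, and FPKM per gene. Per the labels the reads were placed on the build mm10. The aligner, the counting tool, the annotation and whether strand was used are not given in the sources used here. Library totals ranged from 31049632 to 45832185 counts, and no column of other samples was found. Intervals of counts cover counting error only.

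Counts were filtered with edgeR 4.0.16 in R 4.3.3 (filterByExpr by group, minimum count of 10, minimum total of 15), scaled by TMM and tested with its quasi-likelihood fit of group alone. Benjamini-Hochberg adjustment covered all 16612 genes that were tested, and 0.05 was the threshold. Alternatives were RLE size factors, library totals alone, removal of mitochondrial genes (37 genes and 7 nuclear copies), other filters, DESeq2 1.42.0, limma 3.58.1 on log2(FPKM + 1) and log2(FPKM + 0.1), the replicate number as a block, and each library left out.

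Members and lists were chosen with earlier results of these data known. Genes named with values in every library were the 6 tested members with the smallest p in each direction, the 3 highest by FPKM per subunit, paralogs and retrogenes with their parents, genes on chromosome X, stalk genes, Mdm2 binders, Rps19bp1, Rps6 and Rps27a, and the 2 genes with the smallest p of each other list. In the lower direction there were only 2 members. Some genes that this rule picks are not reported here, and the plot of fold changes leaves them out. Of the 92 members, 92 were found in GENCODE M21 by identifier, and 55154 of all 55335 rows were. Coordinates are those of GENCODE M21 (GRCm38, the same build as mm10), 50-base words and coding sequences were taken from its transcripts, with the principal transcript by its tags, and promoter windows from RefSeq (GRCm38.p6), which held 57 of the 77 canonical genes. Copies were aligned with Biopython 1.88.

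Replicate numbers in the labels are shared between the groups, but nothing says that they mark a litter, batch or day.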

Additional observations from a re-analysis of the deposited data

How the results depend on the processing

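The direction of the members' median held under every alternative. Over the 6 fits that each left out 1 library, it ranged from 0.14 to 0.44 (large subunit) and from 0.15 to 0.48 (small subunit), the number of members higher in aged aorta at a p under 0.05 from 0 to 34, and the number of called genes from 0 to 110. That number of members was 0 with library totals only (next to 2.60% of all genes), 8 with DESeq2 (6.91%), 1 with limma on log2(FPKM + 1) (2.52%), 1 with limma on log2(FPKM + 0.1) (2.66%), 16 with the replicate block (5.56%), and 64 without young replicate 1 and aged replicate 2 (9.41%). DESeq2 called 338 genes over the whole table. Members whose aged libraries all lay above the young ones were 2 with library totals only (Rpl22l1 and Rpl39) and 3 by deposited FPKM (these and Rpl27), and those below were 1 under each (Rpl7l1). The difference in the share of counts (aged minus young) was 0.142 percentage points, 0.752 without mitochondrial genes and their copies, and -0.183 to 0.383 with 1 library left out, the lowest without aged replicate 1.

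Several fold changes turned, and not all of these were near 0 as reported: Rpl41 stood at 0.33 ± 0.45 (SE) and Rpl5 at 0.24. With library totals only, the log2 fold changes were -0.22 (Rpl7l1), -0.054 (Rps27rt), -0.13 (Rpl6l), -0.022 (Rpl37rt), -0.049 (Rps3a2), -0.12 (Rpl36a) and -0.092 (Rps25). With limma on log2(FPKM + 1) they were -0.19 (Rpl7l1), -0.042 (Rps27rt), -0.13 (Rpl6l), -0.019 (Rpl37rt), -0.044 (Rps3a2), -0.099 (Rpl36a), -0.0094 (Rpl5), -0.0072 (Rpl41) and -0.049 (Rps25), and with log2(FPKM + 0.1) -0.20 (Rpl7l1), -0.043 (Rps27rt), -0.13 (Rpl6l), -0.020 (Rpl37rt), -0.044 (Rps3a2), -0.10 (Rpl36a), -0.0097 (Rpl5), -0.0081 (Rpl41) and -0.049 (Rps25). These scales lower the median of all genes as well, to -0.22, -0.12 and -0.19. With 1 library left out, Rps25 ranged from -0.079 (without young replicate 3) to 0.31, Rpl7l1 from -0.019 (without aged replicate 1) to 0.053, Rpl6l from -0.087 (without aged replicate 1) to 0.23, Rpl41 from -0.32 (without aged replicate 1) to 0.67, Rpl29 from -0.27 to 0.30 (without young replicate 2; 0.14 without aged replicate 2), and Rps3a3 from -0.31 to 0.065 (without aged replicate 2; 0.031 without young replicate 1 and 0.060 without aged replicate 3). Without both young replicate 1 and aged replicate 2, Rps3a3 was 0.14 and Rpl29 0.098. The cause was not tested. In all, 427 values of named genes kept their direction and their side of the threshold and 37 turned.

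With the replicate block, Rpl29 was 0.013, the medians were 0.29 and 0.34, and 0 genes were called. Samples with the same number correlated by 0.070, 0.11 and 0.081 in their deviations from the group means, so the numbers were not taken to pair the mice.

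Depth did not keep members from being tested, apart from the 4 with few or no counts. There were 3 mice a group, genes share sequence with their copies, and libraries shift all members together. The p values set the difference between the ages only against the spread between these libraries within groups. That spread was estimated with information shared over the genes tested.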
